A study of Mus musculus with 2 samples.

Results

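The regions described are 500-bp stretches of mouse autosomal DNA in which hippocampal CpG methylation was at least 20 percentage points higher in a library from arsenic-exposed offspring (ATO) than in an untreated control library. A CpG cytosine was analysed where at least 10 reads covered it in both libraries, and the genome was cut into consecutive 500-bp bins. The level of a bin is the share of methylated calls among all its calls. A bin is called well covered if it held 8 or more such cytosines and averaged 20 or more reads a cytosine in each library. Of 82710 well-covered bins among 329108 autosomal bins with any analysed cytosine, 909 met the threshold and are the members described here. These 909 bins are 1.10% of the well-covered bins. Which bins qualify depends on the grid: with the edges moved by 250 bp 922 bins met the rule, and they overlapped 515 of the 909. The members were chosen by the ATO minus control difference itself, so the size and direction of their gain are a description and no test is attached to either.

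There was 1 library per group, both from the hippocampus of C57BL/6 mice. The ATO library came from offspring of mice given arsenic trioxide at 5000 ppb in drinking water from before mating through lactation, with the offspring kept on it after weaning. The control library came from untreated mice. The labels used here give no age or sex, and do not say whether a library was 1 animal or a pool. The target-enriched bisulfite libraries held 147924810 calls at 5973197 CpG cytosines in ATO and 135987272 calls at 5772100 in the control, with a median coverage of 45 reads in ATO and 41 in the control at the 2271297 autosomal cytosines analysed. Without replicates, every difference compares these 2 libraries and not the conditions.

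In mammals most CpGs are methylated, by enzymes of the Dnmt3 family that place the mark and by Dnmt1 that copies it after DNA replication. Dense clusters of CpGs, the CpG islands, are kept free of methylation and often hold promoters. The DNA around islands, called shores, and many distal regulatory elements carry intermediate levels that differ between cell types. A level between the extremes in whole tissue is an average over cells and alleles, so a changed mixture of cell types and a changed level within cells cannot be told apart here. Bisulfite also does not separate methylated from hydroxymethylated cytosine, which is abundant in brain.

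Members started from intermediate methylation. Their median level was 69.5% in ATO and 41.1% in the control, with quartiles of 58.5% and 81.0% in ATO and of 30.8% and 51.2% in the control. The lowest and highest member levels were 28.7% and 97.1% in ATO, against 4.36% and 76.4% in the control. In the control 371 members lay between 20 and 40% and 363 between 40 and 60%, which together held most of them, while 117 lay between 60 and 80% and 58 below 20%. In ATO 410 members lay between 60 and 80%, 245 at 80% or above and 222 between 40 and 60%. A control level above 80% could not qualify under the rule, since a rise of 20 points would pass 100%.

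The frequency of large gains differed with the control level, which is itself part of the difference that chose the members. Of well-covered bins with a control level of 40 to 60%, 4.90% were members, and of those between 20 and 40%, 4.33%. The share was 1.24% between 60 and 80% and 0.14% below 20%. Sorted by the ATO level instead, the share was highest between 60 and 80%, at 4.41%. Nearly all members had a mean of both libraries between 20 and 80%, and 24 did not. Well-covered bins in that range, 26360 in number, are therefore the background used below, and 3.36% of them were members. They had a median level of 48.9% in ATO and 52.9% in the control and a median difference of -3.004 points, so members moved against the prevailing direction. Bins at least 20 points lower in ATO numbered 2012, which is 2.43% of well-covered bins and 7.42% of the bins between 20 and 80%. Gains were thus 31.1% of large differences. With the median difference removed from every bin they were 50.8%, at 1319 gains and 1277 losses, so the excess of losses holds for the levels as measured.

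**Figure D1:**
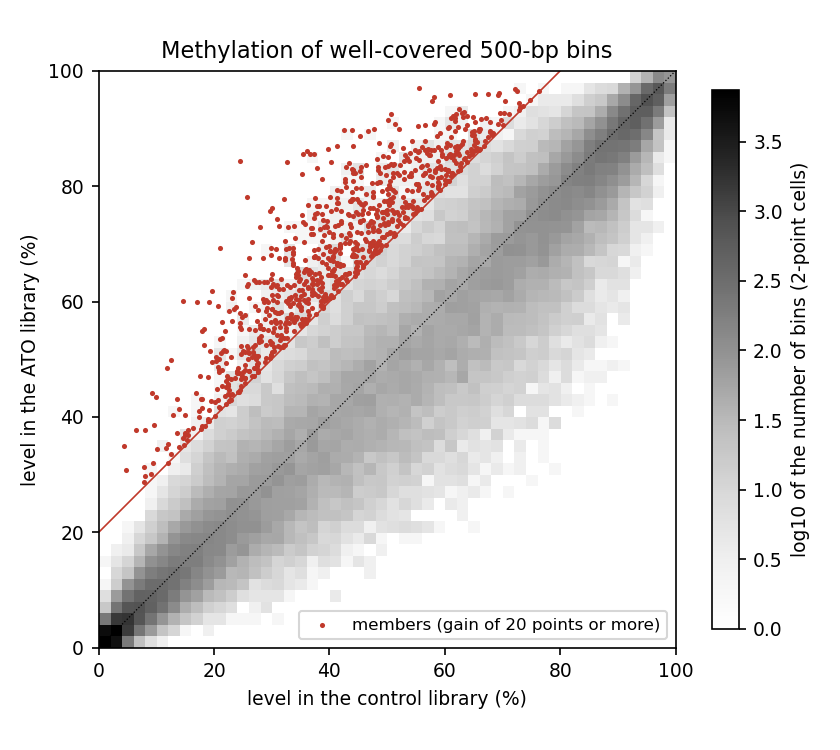
Level of well-covered 500-bp bins in ATO (vertical axis, %) against the control (horizontal axis, %), with grey for the number of bins in cells of 2 by 2 points (log10 scale) and red points for the 909 members. The red line marks a gain of 20 points and the dotted line equal levels; members lie mostly between 20 and 60% in the control and thin out towards both ends.

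Most gains were under 30 points. The median gain was 25.8 points, 412 members (45.3%) gained under 25 points, 253 gained 30 points or more, 40 gained 40 or more and 4 gained 50 or more. A level under 50% in the control with 50% or more in ATO was found in 537 members (59.1%). Of the 909, 0 were under 20% in the control and at 80% or above in ATO. At 90% or above in ATO there were 49 members. The 5 members just inside the threshold differed by 20.004 to 20.036 points and the 5 well-covered bins just outside it by 19.95 to 19.98 points. Levels of the first of the inner bins, on chromosome 5, 150494001 to 150494500, were 64.4% in ATO and 44.4% in the control, and those of the first outer bin, on chromosome 8, 23912001 to 23912500, were 65.4% in ATO and 45.4% in the control. The threshold therefore separates bins with closely similar levels.

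The largest gain was on chromosome 5, 34581001 to 34581500 (mm9, as are all positions). Its level was 84.3% in ATO (exact 95% interval 63.3 to 95.9) and 24.5% in the control (13.4 to 38.8) over 8 cytosines, read 23.1 times on average in ATO and 49.5 in the control. Intervals here and below are Clopper-Pearson, taken after each sum of calls was divided by the most analysed cytosines in any 300 bp of the bin, because calls on a fragment are not independent. They cover counting error only. The single cytosines of this bin ran from 52.6 to 96.6% in ATO and from 12.5 to 37.1% in the control, so the libraries did not overlap at any of the 8. This bin had fewer than 50 reads a cytosine in both libraries, and fewer in ATO than in the control. Its 8 cytosines, all on the reverse strand, lay between 8 and 158 bp from the start of the bin.

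A better covered gain lay on chromosome 6, 113907501 to 113908000, where 17 cytosines were read 79.8 times on average in ATO and 81.1 in the control. The level was 78.2% in ATO (68.2 to 86.2) and 25.8% in the control (17.2 to 35.9), a difference of 52.4 points. Its first 14 cytosines, 10 to 145 bp from the start of the bin, lay between 69.0 and 93.8% in ATO and between 8.86 and 32.5% in the control. The last cytosine of the bin, 487 bp from its start, had 60.9% in ATO and 28.3% in the control. Between 175 and 425 bp no cytosine was analysed. The cytosines at 175, 425 and 487 bp differed by 22.2, 29.3 and 32.7 points, less than any of the first 14. Levels were thus higher in ATO near both ends of the bin, but by less towards the far end. Beyond both edges the adjacent bins held only 2 and 1 analysed cytosines, at 58.6% and 79.2% in ATO and 12.8% and 8.33% in the control, while the next analysed bin, from 113908501, differed by 1.39 points.

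Among the other large gains, chromosome 2, 32824501 to 32825000, had 84.3% in ATO (72.7 to 92.3) and 32.7% in the control (22.3 to 44.6) over 8 cytosines. On chromosome 5, 74584001 to 74584500, the level over 13 cytosines was 85.6% in ATO and 35.4% in the control. On chromosome 11, 105231001 to 105231500, it was 86.1% in ATO and 36.2% in the control, with mean coverages of 82.5 reads in ATO and 67.8 in the control and every one of 8 cytosines higher by 42.8 to 58.6 points. These 8 cytosines, all on the reverse strand, lay between 99 and 218 bp from the start of the bin. Over all members the span from first to last analysed cytosine had a median of 352 bp. Calls at such close cytosines can come from the same fragments, so they are not separate observations. The remaining 5 of the top 10 lay on chromosomes 3, 5, 11 and 19, with differences of 46.9 to 48.9 points. All 10 had between 69.3 and 89.8% in ATO and between 20.97 and 42.6% in the control. An annotation of mm9 was not used here, so gene context is not given for any bin.

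The deepest members were read well beyond the required depth. The deepest, on chromosome 1, 173258001 to 173258500, had 337 reads a cytosine in ATO and 285 in the control, with a level of 52.3% in ATO (47.6 to 57.0) and 24.7% in the control (20.4 to 29.3). On chromosome 6, 134136001 to 134136500, at 170 reads in ATO and 175 in the control, the level was 80.8% in ATO (75.1 to 85.7) and 44.1% in the control (37.6 to 50.7). The other 3 of the 5 deepest, on chromosomes 1, 3 and 12, differed by 20.8 to 29.2 points. Over all members the full width of the 95% interval of a level had a median of 20.7 points in ATO and 22.9 points in the control.

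Few members began close to unmethylated. Of the 58 under 20% in the control, 11 were under 10%, and the 5 lowest had 4.36 to 7.94% there and 28.7 to 37.7% in ATO. A pair of them were adjacent on chromosome 5. The bin at 38217001 to 38217500 had 35.0% in ATO (21.2 to 50.9) and 4.36% in the control (0.39 to 16.4) over 17 cytosines. Its neighbour at 38217501 to 38218000 had 37.7% in ATO (28.5 to 47.5) and 6.55% in the control (2.89 to 12.4) over 25 cytosines, and all 25 were higher in ATO.

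This pair lay inside CpG-dense DNA with little methylation. The bin before it with 38 analysed cytosines, from 38215501, had 1.65% in ATO and 2.74% in the control, and was below the depth required of members. The bins after it, from 38218001 and 38218501, held 34 and 27 cytosines and had 9.88% and 9.34% in ATO against 3.31% and 4.40% in the control. Levels in ATO were thus highest in the pair and lower on either side. Within the second bin, cytosines of the first 400 bp ran from 23.2 to 60% in ATO, while the 4 cytosines of the last 50 bp ran from 9.09 to 22.9%.

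On chromosome 9, 91274001 to 91274500, the level was 30.9% in ATO (17.3 to 47.3) and 4.77% in the control (0.49 to 17.1) over 20 cytosines of 13 CpGs. The bin directly before it, with 33 cytosines, had 12.5% in ATO and 4.45% in the control, and the one before that, with 19 cytosines, 4.63% in ATO and 5.12% in the control. The difference therefore fell away over 2 bins in that direction, and no bin was analysed within 1000 bp on the other side. The member with the most cytosines among those starting under 10% was on chromosome 2, 93486001 to 93486500. It had 38.5% in ATO (27.9 to 50.04) and 9.52% in the control (4.13 to 18.1) over 28 cytosines, all of them higher in ATO by 10.8 to 57.4 points. A dense unmethylated bin 500 bp further on, from 93487001, had 7.78% in ATO and 3.71% in the control over 31 cytosines.

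**Figure D2:**
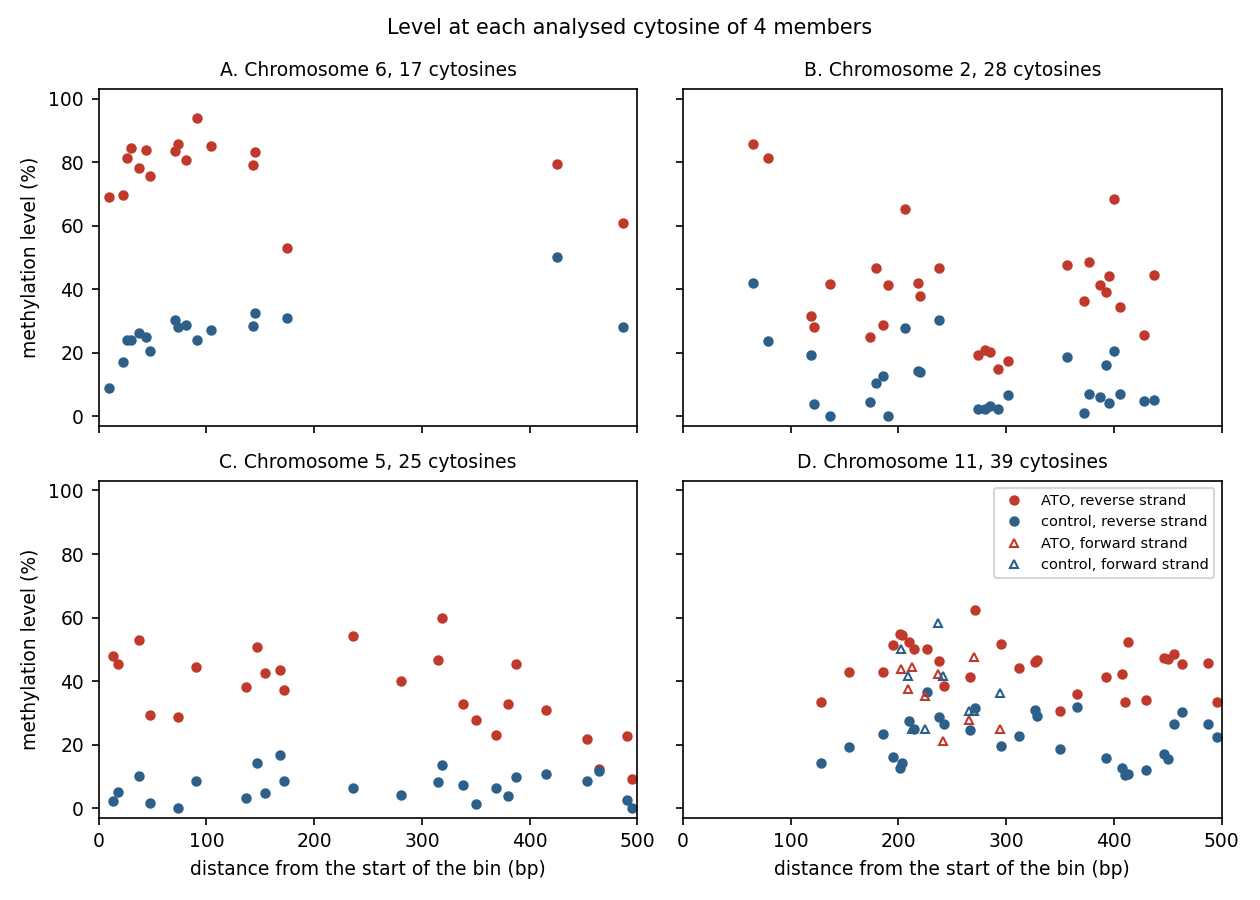
Level at each analysed cytosine (%, vertical axis) by distance from the start of the bin (bp, horizontal axis) in 4 members, with ATO in red and the control in blue, filled circles for the reverse and open triangles for the forward strand. Panels A to C show the bins on chromosome 6 (17 cytosines), chromosome 2 (28) and chromosome 5 (25), where ATO lies above the control at every cytosine; panel D shows the bin on chromosome 11 with 39 cytosines, where the 30 reverse-strand cytosines were all higher in ATO and only 3 of the 9 forward-strand cytosines were.

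Gains were spread over most cytosines of a bin. Of the 9741 cytosines in members, 9163 (94.1%) were higher in ATO and 494 lower. In well-covered bins 36.7% of cytosines were higher in ATO, and in those of 20 to 80%, 41.7%. A rise of at least 10 points was seen at 8276 cytosines of members (85.0%), beside 7.95% of cytosines in well-covered bins and 18.5% in those of 20 to 80%. A high share is fixed in part by the rule, which needs a high sum. Every cytosine was higher in 537 members (59.1%), all but 1 in 236, and 2 or more were not higher in the other 136. In 237 members every cytosine was at least 10 points higher. Bins with large loss were similar in the other direction, with 95.04% of cytosines lower and 64.2% of bins lower at every cytosine.

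The size of the gain still varied among the cytosines of a bin. In the median member the lowest cytosine differed by 3.08 points and the highest by 45.5 points. The standard deviation of the differences within a bin had a median of 14.02 points, where counting error alone gives 8.89 points by the binomial formula. The ratio of the measured to the counting standard deviation had a median of 1.55 in members (quartiles 1.20 and 1.97), 1.43 in bins with large loss and 1.34 in bins of 20 to 80%. In 115 members (12.7%) the spread was no larger than counting error, beside 17.4% of the bins of 20 to 80%. Levels of the cytosines in a member had a median standard deviation of 14.9 points in ATO and 14.3 points in the control, so the bins were about as uneven in both libraries.

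Gains differed with the control level of the cytosine. Member cytosines with 20 to 40% in the control averaged 61.0% in ATO and 30.3% in the control, a difference of 30.6 points. For those at 40 to 60% the difference was 28.8 points, for those under 20% 26.3 points and for those at 60 to 80% 18.6 points. The 564 cytosines at 80% or above averaged 91.5% in ATO and 88.6% in the control and differed by 2.87 points. These had little room to rise, and sorting by the measured control level itself lowers the difference at the top and raises it at the bottom.

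Position within the bin and strand gave further views. In 593 members both 250-bp sides held at least 3 analysed cytosines, and in 580 of these both were higher in ATO. Both sides gained at least 10 points in 512 and at least 20 points in 292, while in 81 members 1 side or both stayed under 10 points. Of 18632 bins of 20 to 80% with both sides readable, both were higher in ATO in 4418, by at least 10 points in 1024 and by at least 20 points in 295. The sides make up the sum that chose the members and sonicated fragments can span both, so these counts are partly set by the rule. The reverse strand held 97.5% of member cytosines. Only 24 members had at least 3 analysed cytosines on each strand, and both strands were higher in ATO in 22 of them, beside 327 of 1409 bins of 20 to 80%. Across these 24 the median difference was 28.2 points on the forward and 25.8 points on the reverse strand. Calls of both strands were summed to choose the members, so this too is partly set by the rule. The chromosome 9 bin at 91274001 was among the 22, with 21.8% in ATO and 6.49% in the control on the forward strand and 32.9% in ATO and 4.33% in the control on the reverse strand.

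Members were a smaller share of the bins with many analysed cytosines than of those with few. The number of analysed cytosines, which depends on coverage as well as on sequence, had the same median in members and bins of similar level. Its median was 10 in members (range 8 to 39), in bins with large loss and in bins of 20 to 80% alike, and 13 in all well-covered bins. Exactly 8 cytosines, the smallest number admitted, were found in 253 members, and 26 held 20 or more. Among bins of 20 to 80%, the share that were members was 3.83% with 8 or 9 cytosines (exact interval 3.48 to 4.20), 3.42% with 10 to 12, 2.86% with 13 to 19, 1.81% with 20 to 29 and 0.78% with 30 or more (0.21 to 1.98). Large losses thinned out in the same order, at 8.42%, 7.49%, 6.69%, 3.54% and 1.17%. Sums over more cytosines also carry less counting error, and its part in this order was not tested.

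The member with the most cytosines, on chromosome 11, 62374001 to 62374500, had 44.2% in ATO (28.95 to 60.4) and 24.1% in the control (12.8 to 38.8) over 39 cytosines of 30 CpGs. On chromosome 16, 35660001 to 35660500, 37 cytosines gave 53.7% in ATO and 31.6% in the control. On chromosome 2, 150326001 to 150326500, 36 cytosines gave 47.1% in ATO and 26.9% in the control. These 3 bins were higher by only 20.1 to 22.1 points, held 4 to 6 cytosines that were not higher in ATO, and had overlapping intervals. On chromosome 6, 113698501 to 113699000, 31 of 32 cytosines were higher, at 47.6% in ATO (36.7 to 58.6) and 23.9% in the control (15.2 to 34.6).

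Coverage of members was close to that of their background. The median coverage per bin was 62.3 reads in ATO and 59.3 in the control, against 61.9 in ATO and 56.7 in the control in bins of 20 to 80%. The ratio of ATO to control coverage had a median of 1.07 in members, 1.12 in bins with large loss and 1.09 in bins of 20 to 80%. Members made up 2.97% of bins of 20 to 80% whose lower coverage was 20 to 39 reads, 3.27% at 40 to 59, 3.49% at 60 to 79, 4.04% at 80 to 119 and 3.02% at 120 or more. Large losses made up 8.38%, 7.78%, 6.90%, 6.94% and 3.86% in the same classes. Large gains thus rose from 2.97% at 20 to 39 reads to 4.04% at 80 to 119 and were 3.02% above that. Large losses were least frequent in the deepest bins. Gains were 26.2% of all large differences at 20 to 39 reads, and this share rose in each deeper class, to 43.9% at 120 or more. Bins of different depth also differ in kind, and the part of depth in these shares was not tested.

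Distance to unmethylated CpG-dense DNA was measured to the nearest bin that held 15 or more analysed cytosines and averaged under 10% over both libraries. Members lay a median of 22000 bp away, beside 32500 bp for bins with large loss and 17500 bp for bins of 20 to 80%. Within 2000 bp were 181 members (19.9%, exact interval 17.4 to 22.7), 10.1% of bins with large loss and 24.6% of bins of 20 to 80%. Next to a dense bin, with no gap, lay 35 members.

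Gains became no more frequent with distance once the directly adjacent bins were passed. Among bins of 20 to 80%, members made up 1.18% of those adjacent to a dense bin (exact interval 0.82 to 1.64), 3.98% of those at up to 2000 bp (3.37 to 4.67), 3.52% at 2001 to 10000 bp, 3.59% at 10001 to 50000 bp and 3.55% beyond (3.13 to 4.003). Large losses made up 1.25%, 4.54%, 6.85%, 8.47% and 10.5% in the same order. Gains were therefore 48.6% of all large differences beside dense bins, 46.7% at up to 2000 bp and 25.3% beyond 50000 bp. Classes were not matched for level, depth or number of cytosines, and neighbouring bins are not independent.

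**Figure D3:**
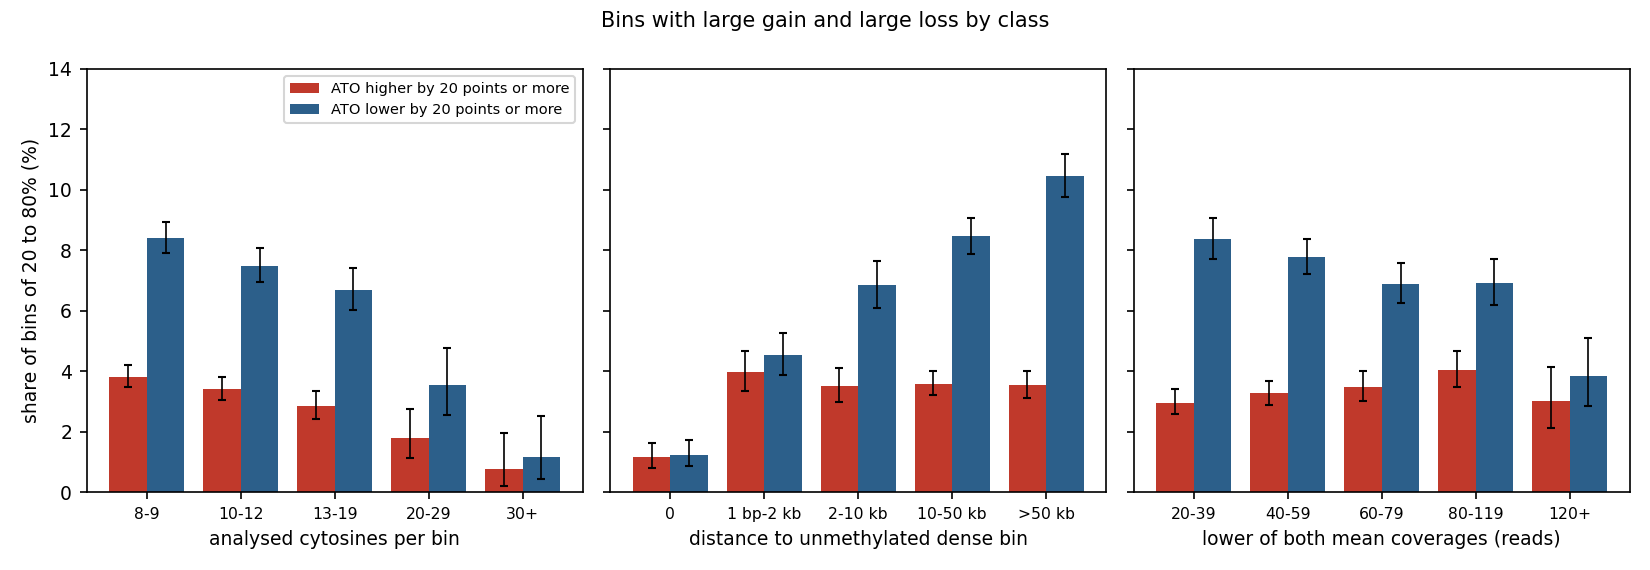
Share of well-covered bins of 20 to 80% (vertical axis, %) that were at least 20 points higher (red) or lower (blue) in ATO, by analysed cytosines per bin, by distance to the nearest unmethylated dense bin and by the lower of both mean coverages in reads; error bars are exact 95% binomial intervals over bins. Gains thin out with cytosine number, from 3.83 to 0.78%, and stay between 3.52 and 3.98% at all distances beyond the adjacent bins, while losses climb to 10.5%.

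A member cannot itself be a dense bin, since a rise of 20 points gives a mean of at least 10% over both libraries. The largest gains near dense DNA were taken from the members within 2000 bp of a dense bin. Those on chromosome 2, 32824501 to 32825000, described above, and on chromosome 11, 54115501 to 54116000, lay 1500 bp from a dense bin. The second had 85.5% in ATO (68.6 to 95.4) and 36.7% in the control (22.8 to 52.3), with mean coverages of 32 reads in ATO and 45 in the control. Towards higher coordinates the levels fell off, with 39.9% in ATO and 49.4% in the control in the bin from 54116501 and 4.57% in ATO and 8.82% in the control in the bin from 54117001, both lower in ATO. The bin between, from 54116001, held 1 analysed cytosine, with 66.7% in ATO and 38.9% in the control. The gain was thus not seen in the farther bins on that side, but none of these bins was well covered. On chromosome 17, 83678001 to 83678500, at 2000 bp from a dense bin, the level was 67.6% in ATO (58.4 to 75.9) and 28.6% in the control (20.4 to 37.9), and the 3 bins before it were higher by 19.6, 9.65 and 10.1 points.

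Gains reached past the edges of the bins. Bins directly beside a member that were not members themselves and held at least 3 analysed cytosines numbered 806. Of these 676 (83.9%) were higher in ATO, against 41.3% of all bins with 3 or more cytosines, and 398 (49.4%) were at least 10 points higher, against 6.82%. Their median difference was 9.87 points. Where both neighbours could be read, in 182 members, both were higher in 126 and both lower in 10. Neighbours of bins with large loss mirrored this, with 88.7% lower and a median of -11.9 points. Fragments and probes that cross an edge are shared between neighbouring bins, so neighbours are not independent of the choice of members.

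Farther out the gain shrank. Cytosines of 20 to 80% outside members averaged 62.8% in ATO and 42.8% in the control within 100 bp of a member, a difference of 19.97 points. The difference was 13.4 points at 201 to 300 bp, 9.55 points at 301 to 500 bp, 5.98 points at 501 to 1000 bp and 1.38 points at 1001 to 2000 bp. It was -1.27 points at 5001 to 10000 bp and -3.62 points at 20001 to 50000 bp, beside -3.77 points for all analysed cytosines of that range. With cytosines of any level included the differences were smaller, at 15.3 points within 100 bp, 7.41 points at 201 to 300 bp, 4.67 points at 301 to 500 bp, 1.95 points at 501 to 1000 bp and 0.49 points at 1001 to 2000 bp. Around bins with large loss the differences were -21.01, -9.88 and -6.49 points within 100 bp, at 501 to 1000 bp and at 1001 to 2000 bp. Fragments can span the shortest of these distances, and their length is not stated in the labels used here.

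**Figure D4:**
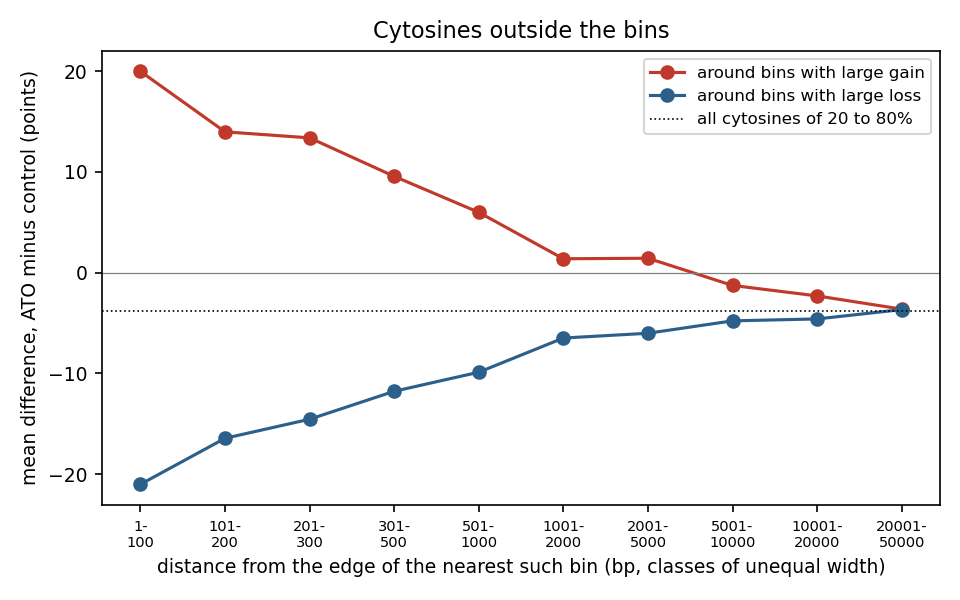
Mean difference in level (ATO minus control, points, vertical axis) of cytosines of 20 to 80% outside the bins, by distance from the nearest bin with large gain (red) or large loss (blue), in bp classes of unequal width. Around gains the mean is 19.97 points within 100 bp and 1.38 points at 1001 to 2000 bp, and it meets the value of all such cytosines, -3.77 points (dotted), by 20001 to 50000 bp.

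A minority of members lay in groups. Another member lay at a gap of at most 1000 bp from 146 of the 909 (16.1%, exact interval 13.7 to 18.6), beside 1.42% of bins of 20 to 80% with a member that near, and 763 stood alone by that measure. Only 341 of the 909 had a well-covered bin directly beside them, so for most an adjacent member was not possible. The median distance to the nearest other member was 291000 bp. Of 378 such neighbouring bins, 118 (31.2%) were members too, and 0 were bins with large loss. Of the well-covered bins directly beside bins of 20 to 80%, 1.89% were members and 3.90% were bins with large loss. A bin with large loss lay within 1000 bp of 1 member and within 10000 bp of 23. Linking members at gaps of up to 1000 bp gave 55 pairs, 10 runs of 3 and 1 run of 6. The 2012 bins with large loss formed 106 pairs and 9 runs of 3 or more, of which the longest held 4.

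The run of 6 spanned 3500 bp on chromosome 13, 111188001 to 111191500, starting 2000 bp from a dense unmethylated bin. Its members had, in order along the chromosome, 60.4%, 54.0%, 50.6%, 56.3%, 69.0% and 76.0% in ATO, against 28.4%, 28.1%, 27.5%, 30.8%, 46.8% and 41.2% in the control. The member levels of the libraries did not overlap, since the lowest member in ATO stood above the highest in the control. Single cytosines of these members did overlap, with levels down to 18.2% in ATO and up to 78.7% in the control. Mean coverages were 42.6 to 156 reads in ATO and 50.4 to 149 in the control, and 79 of the 80 analysed cytosines of the whole span, which includes 1 bin that was no member, were higher in ATO. In the dense DNA more than 2000 bp before the run, cytosines had at most 18.4% in ATO and at most 11.1% in the control. Between -2147 and -1106 bp from the start of the run no cytosine was analysed. The first cytosines after this gap, at -1106, -1053 and -1050 bp, had 15.8%, 35.5% and 11.8% in ATO and 0%, 9.09% and 26.1% in the control. From -687 bp up to the run every analysed cytosine was higher in ATO, by 11.4 to 41.2 points. With few cytosines analysed there, the place where the libraries parted was not resolved.

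**Figure D5:**
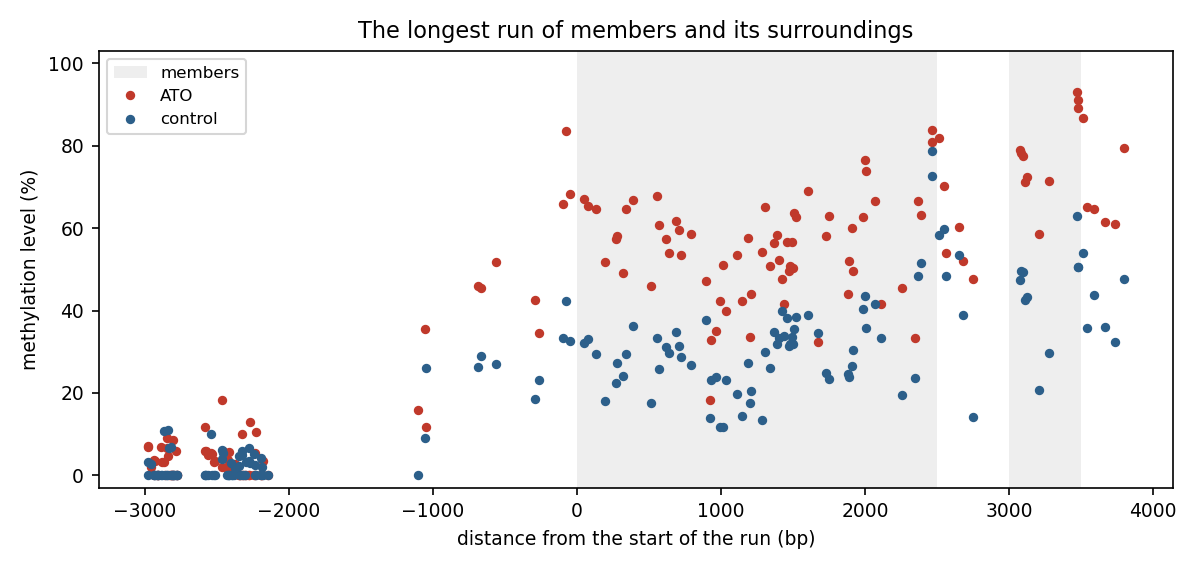
Level of each analysed cytosine (%, vertical axis) by distance from the start of the longest run of members on chromosome 13 (bp, horizontal axis), with ATO in red, the control in blue and members shaded. ATO lies above the control at 79 of the 80 cytosines of the run, and both lie near 0 in the unmethylated stretch more than 2000 bp before them.

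The largest difference over a run of 3 was on chromosome 10, 98772501 to 98774000, with 77.3% in ATO and 37.6% in the control at mean coverages of 108 reads in ATO and 116 in the control. All 32 cytosines were higher in ATO, and the run lay 45000 bp from a dense bin. On chromosome 13, 5864001 to 5866000, the level over 3 members was 69.2% in ATO and 33.6% in the control, with members higher by 34.6 to 37.0 points. On chromosome 2, 67353501 to 67355000, it was 86.2% in ATO and 54.3% in the control, with all 34 cytosines higher. The smallest differences over a run were on chromosome 10, 21716001 to 21718000 (ATO 55.01%, control 32.6%), and on chromosome 7, 77492501 to 77494500 (ATO 43.4%, control 20.9%).

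The other runs lay between these. They were on chromosome 4, 137419001 to 137422000, with 62.8% in ATO and 37.3% in the control, on chromosome 5, 116368501 to 116370500 (ATO 74.6%, control 46.6%) and 150493501 to 150495500 (ATO 77.6%, control 47.8%), on chromosome 7, 86415501 to 86417500 (ATO 68.9%, control 38.4%), and on chromosome 15, 68762001 to 68763500 (ATO 66.9%, control 36.9%). Across the 11 runs at most 3 cytosines of a span were lower in ATO, and 5 runs began or ended within 2000 bp of a dense unmethylated bin. Of single bins, 19.9% of members and 24.6% of those of 20 to 80% lay that near. The distance of a run is that of its nearest member, so a longer span is nearer by construction and these shares are not directly comparable. Several of the 10 largest gains lay on the same chromosome as the run at 116368501, all outside it. Among them, the bin at 116412001 to 116412500 had 85.7% in ATO and 37.3% in the control over 16 cytosines. The bin directly before it, from 116411501, was a member too, with 69.2% in ATO and 32.4% in the control.

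Members were found on all 19 autosomes. Their share of the bins of 20 to 80% was highest on chromosome 10, at 4.92% (exact interval 3.89 to 6.13), and lowest on chromosome 14, at 2.02% (1.22 to 3.14), followed by chromosome 4 at 2.19%. Large losses on chromosomes 10, 14 and 4 made up 6.83%, 8.31% and 7.63%. As measured, large losses outnumbered members on each of the 19, and members were between 19.6% of large differences on chromosome 14 and 41.9% on chromosome 10. Since members come in runs, the intervals on these shares are too narrow.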

How the data were processed

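The 2 tables, 1 per library, list CpG cytosines by strand. Per the file headers, the authors deposited a raw count, the coverage by C and T calls, and the percent of C and of T in it. The tools named, per the submitters' processing notes, are bcl2fastq, Bismark 0.19.0 and Bowtie2, and the build is mm9. Whether reads were trimmed, deduplicated or pooled over animals is not given in the sources used. Libraries were made with the SureSelectXT Mouse Methyl-Seq kit, per the labels' protocols. If duplicates were kept, reads are not independent molecules.

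Multiplying the coverage by the percent of C gave methylated counts, of which 100% were whole within the rounding of 0.005 points. Strands were kept apart. Chromosomes 1 to 19, cytosines with 10 or more reads in both libraries and bins numbered from base 1 were used. No test was run, since the difference chose the members and each group has 1 library. Members and comparisons were chosen with earlier results of these data known. Named bins follow rules of rank (largest gain, most cytosines, deepest, lowest control level, nearest the threshold, largest near dense bins, runs of 3 or more); others are named as their neighbours. The selection code was checked on simulated counts with planted bins. This checks the code only, and not whether the members differ beyond the noise between 2 libraries. Python 3.11.15, pandas 2.3.3 and scipy 1.17.1 were used.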

Additional observations from a re-analysis of the deposited data

How the results depend on the processing

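No paired analysis was possible because each group had 1 library. All alternative settings were fixed with earlier results of these data known. Of the 12 that could change the number of members, it left the range of 1.5 times the main count of 909 in 3: 305 with bins of 200 bp, 476 with at least 10 cytosines per bin and 253 with a gain of at least 30 points. It was between 693 and 1319 in the other 9. Removing the median difference of -3.004 points gave the 1319. With bin edges shifted by 250 bp the 922 qualifying bins overlapped 56.7% of the members. The median control level of 41.1% moved to 39.1% with 200-bp bins, 42.8% with 1000-bp bins and 38.7% with a gain of 30 points. The share of cytosines higher in ATO, 94.1%, was 92.4% at a coverage minimum of 5 and with 1000-bp bins, 96.1% at a minimum of 20, 94.6% with shifted edges, 96.9% with 200-bp bins, 95.6% with unweighted means, 95.01% at a mean coverage of 40, 97.1% at a gain of 30 points and 95.4% after the median was removed. The median number of cytosines was 11 with 1000-bp bins and 12 with at least 10 per bin. The share within 2000 bp of a dense bin, 19.9%, was 15.6% at a coverage minimum of 20, 12.5% with 200-bp bins and 17.1% with dense bins of at least 20 cytosines, and 26.3% lay within 4000 bp. The share with another member within 1000 bp, 16.1%, was 12.3% with 1000-bp bins and 12.3% at a gain of 30 points, and 20.2% had one within 5000 bp. What moved these values was not tested, beyond what the wider limits and stricter thresholds set by construction. Depth limits single bins: the 95% interval of a member's level had a median width of 20.7 points in ATO and 22.9 points in the control.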

Other observations

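In 2 of the 24 members read on both strands the strands differed in direction; these were chosen after their values were seen. On chromosome 9, 70432501 to 70433000, the 9 reverse-strand cytosines had 76.8% in ATO and 52.3% in the control and were all higher in ATO. The 5 forward-strand cytosines had 63.2% in ATO and 76.4% in the control and 0 were higher, at mean coverages of 17.4 reads in ATO and 14.4 in the control. On chromosome 11, 62374001 to 62374500, the 30 reverse-strand cytosines had 45.3% in ATO and 23.1% in the control, and the 9 forward-strand cytosines 35.7% in ATO and 37.4% in the control, at mean forward coverages of 18.7 reads in ATO and 11.9 in the control. In the strand-resolved member with the largest forward gain, on chromosome 11, 46079501 to 46080000, the forward strand had 85.3% in ATO and 34.7% in the control over 3 cytosines and the reverse strand 75.1% in ATO and 48.0% in the control over 5.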
